A study of Homo sapiens with 12 samples.

Results

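The phagocyte NADPH oxidase genes CYBB, CYBA, NCF1, NCF4 and RAC2 are described here through the H3K4me2 peaks in their gene bodies and within 50 kb of their canonical start sites. They are 5 of the 19970 protein-coding genes on chromosomes 1 to 22 and X, and they share a function, with no peak value in the rule that names them, although the set was proposed with results of these data known. The study profiled H3K4me2, a histone mark of active and poised regulatory DNA, by ChIP-seq in U-937, a human monocytic leukaemia line labelled as AML cells. For 24 hours the cultures were given DMSO as vehicle, ATRA (all-trans retinoic acid, 0.1 µM), Corin (0.1 µM), or the combination with 0.1 µM of each drug. ATRA activates retinoic acid receptors, whereas Corin blocks LSD1, which demethylates H3K4, and histone deacetylases in the CoREST complex. All groups share 1 cell line, and each treatment has 1 peak list pooled from 2 H3K4me2 libraries and 1 input, so differences between lists have no replicate check.

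The phagocyte oxidase passes electrons from NADPH across a membrane to oxygen and makes superoxide, which phagocytes use to kill microbes. Its membrane part is a pair of proteins, gp91phox (CYBB), the electron-carrying subunit, and p22phox (CYBA), which stabilises it. On activation the cytosolic organiser p47phox (NCF1), the modulator p40phox (NCF4) and the small GTPase RAC2 join them. Loss of the subunits encoded by CYBB, CYBA or NCF1 causes chronic granulomatous disease, and the oxidase genes are known to be expressed as myeloid cells mature.

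The number of peaks was 65172 in the vehicle list, 66385 after ATRA, 73997 after Corin and 83969 after both drugs. The H3K4me2 libraries, as recovered from the deposited values, were 1.02 times as deep as the vehicle's with ATRA, 1.10 times with Corin and 1.20 times with the combination. The inputs, recovered in the same way, were 1.15 times as deep as the vehicle's with ATRA, 1.19 times with Corin and 1.13 times with the combination. More peaks pass in a deeper library, so values at equal depth are given beside the main counts of gained regions. That setting also requires a recomputed −log10 p of at least 5, so it is stricter as well as scaled. Of 10 monocytic and myeloid markers, 8 had a peak over the start site in the DMSO, ATRA and Corin lists and 5 with the combination. CD14 and FCGR1A had none in any list, and CEBPA, LYZ and CD33 had none with the combination. Among markers of other cell types, the B cell gene CD79A was covered in every list, and the T cell, erythroid, epithelial and liver markers were covered in none.

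Around the 5 genes the 4 lists formed 65 merged regions, of which 29 held a peak of every list and 12 a peak of the combination only. The DMSO list marked 31 of the regions, ATRA 40, Corin 45 and the combination 57. No region was marked in DMSO alone. Against DMSO the ATRA list gained 9 and lost 0 of the 40 regions in either list, a gained share of 22.5% (95% interval 12.3 to 37.5), where 16.4% of all such regions were gained and 7.58% lost. The Corin list gained 16 and lost 2 of 47, or 34.0% (22.2 to 48.3), where 22.4% of all regions were gained and 7.46% lost. The combination gained 26 and lost 0 of 57, or 45.6% (33.4 to 58.4), where 34.9% of all regions were gained and 4.55% lost. In each of these comparisons the share for the 5 genes was the higher, and the share for all regions lay inside its interval. The counts therefore do not set these genes apart from the series. The intervals treat regions as independent, although many lie side by side in the same windows, so they do not show equal shares either. At equal depth, with its −log10 p cutoff of 5, the net gain was 5 regions with ATRA, 5 with Corin and 18 with the combination. The ATRA count fell from 9 to 5 although its libraries were 1.02 times as deep as the vehicle's. The parts of depth and of the cutoff in these changes were not tested.

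**Figure D1:**
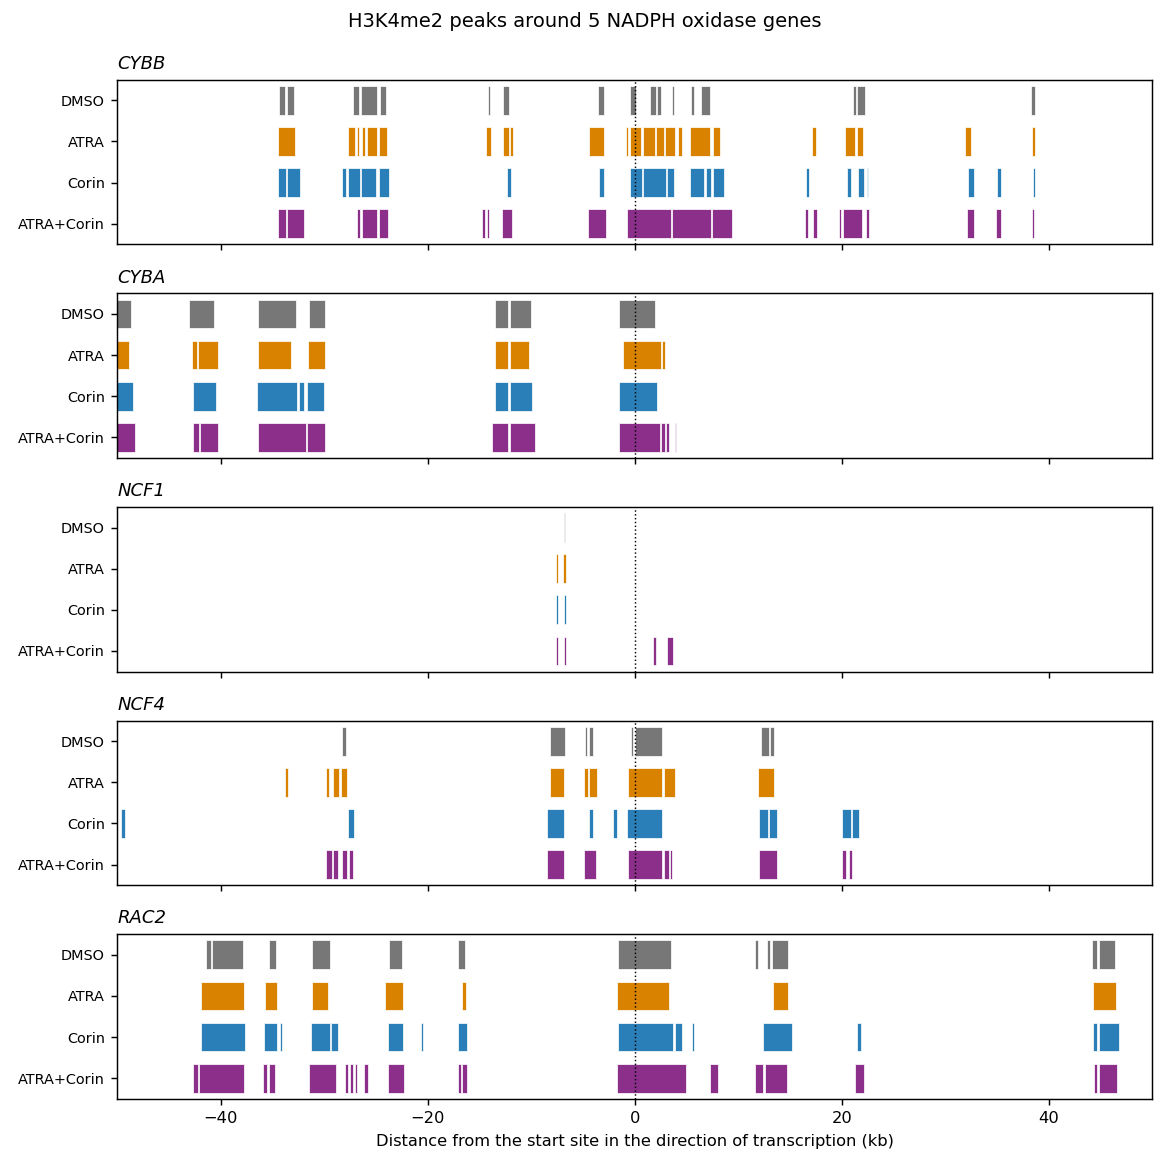
H3K4me2 peaks (bars) of the 4 peak lists within 50 kb of the start site of each gene, with distance in kb in the direction of transcription on the x axis and the start site as a dotted line. The start sites of CYBB, CYBA, NCF4 and RAC2 lie under a peak in every list, NCF1 has 1 to 4 short peaks per list and none over its start site, and the peaks at the 5′ end of CYBB run together with the combination.

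Of the regions gained against DMSO, 5 of 9 with ATRA had a deposited −log10 q of at least 5, beside 46.7% of all regions gained with ATRA. With Corin it was 5 of 16, beside 40.0%, and with the combination 9 of 26, beside 42.0%. Their summits held 14 to 32 H3K4me2 fragments with ATRA, 12 to 34 with Corin and 14 to 52 with the combination, beside medians over all peaks of 47, 40 and 45 fragments in those lists.

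By length under peaks, CYBB differed most from DMSO among the 5 genes in each drug list. The gene lies at chrX:37780018-37813461 on the plus strand (GRCh38) and has 13 exons in its canonical transcript. Its whole window also lies in an intron of a longer annotated gene, ENSG00000250349, so every CYBB region is inside a gene. Its promoter (chrX:37779809-37780108, 250 bases before to 50 after the start site, from RefSeq, GRCh38.p14) is shown with the intronic stretch around the summit of the strongest peak near its 5′ end in the ATRA list (chrX:37786506-37786805, read from the GRCh38 genome), since these are the positions where the lists differed. Capitals mark matches on either strand to GAGGAA, a core bound by PU.1-type ETS factors, to the CCAAT box, and to an interferon response type motif, which is GAAA followed 2 bases later by GAAA.

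CYBB promoter: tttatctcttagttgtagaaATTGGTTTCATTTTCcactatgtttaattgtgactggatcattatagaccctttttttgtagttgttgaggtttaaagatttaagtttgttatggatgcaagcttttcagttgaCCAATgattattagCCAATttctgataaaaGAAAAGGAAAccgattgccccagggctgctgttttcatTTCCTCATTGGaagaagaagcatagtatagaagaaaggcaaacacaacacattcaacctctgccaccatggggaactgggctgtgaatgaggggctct

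CYBB intron peak: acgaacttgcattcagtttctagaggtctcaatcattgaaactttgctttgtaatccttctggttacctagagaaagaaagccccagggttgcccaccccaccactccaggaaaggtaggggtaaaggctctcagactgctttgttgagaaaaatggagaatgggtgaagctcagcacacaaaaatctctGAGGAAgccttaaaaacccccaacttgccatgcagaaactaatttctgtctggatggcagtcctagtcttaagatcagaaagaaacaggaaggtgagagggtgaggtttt

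The CYBB promoter held 1 GAGGAA match, 4 CCAAT matches and 2 interferon type matches. The GAGGAA match lay on the other strand at −48 to −43 bases from the start site, directly beside a CCAAT match on the same strand at −42 to −38. The intron stretch held 1 GAGGAA match. Over all 35116 promoters of the table, 27.9% held GAGGAA, 34.6% the CCAAT box and 3.57% the interferon type motif, and 29.3% of the 300-base stretches around all summits of the combination list held GAGGAA. The promoter has 1 CG dinucleotide, beside a median of 14 over all promoters. Neither stretch held the core of retinoid response elements, AGGTCA, which 13.8% of all promoters and 22.3% of the stretches around combination summits hold. These matches are letters only and show no binding.

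At the CYBB start site the DMSO list held a peak of 515 bp. The peak there was 1077 bp wide with ATRA, 1112 bp with Corin and 4237 bp with the combination. The gene's 5′ end, from −912 to 9378 bases relative to the start site, held 6 separate DMSO peaks over 2729 bp. ATRA peaks covered 7181 bp there, Corin peaks 6990 bp and combination peaks 9852 bp, the last in 3 peaks. The ends of this stretch are those of the outermost drug-list peaks, so its cover is low in DMSO partly by construction. In the 5 kb either side of the start site, a window added after seeing the data, the length under peaks was 2.18 kb in DMSO. It was 5.95 kb with ATRA, 4.49 kb with Corin and 7.44 kb with the combination. No peak sets the bounds of this window. In the planned window of 10 kb, the gain over DMSO was 5.32 kb with ATRA, 4.19 kb with Corin and 8.39 kb with the combination.

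The strongest peak of this stretch had its summit 6.6 kb after the start site. It held 35 fragments in DMSO (24.4 to 48.7), 77 with ATRA (60.8 to 96.2), 48 with Corin (35.4 to 63.6) and 72 with the combination (56.3 to 90.7). The intervals of DMSO and ATRA did not overlap at nearly equal depth, and those of DMSO and Corin did. Medians over all peaks were also higher with ATRA, at 47 fragments beside 39 in DMSO (40 with Corin, 45 with the combination). Over the start site itself the peak held 15 fragments in DMSO (8.40 to 24.7) and 28 with ATRA (18.6 to 40.5), and these intervals overlapped.

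**Figure D2:**
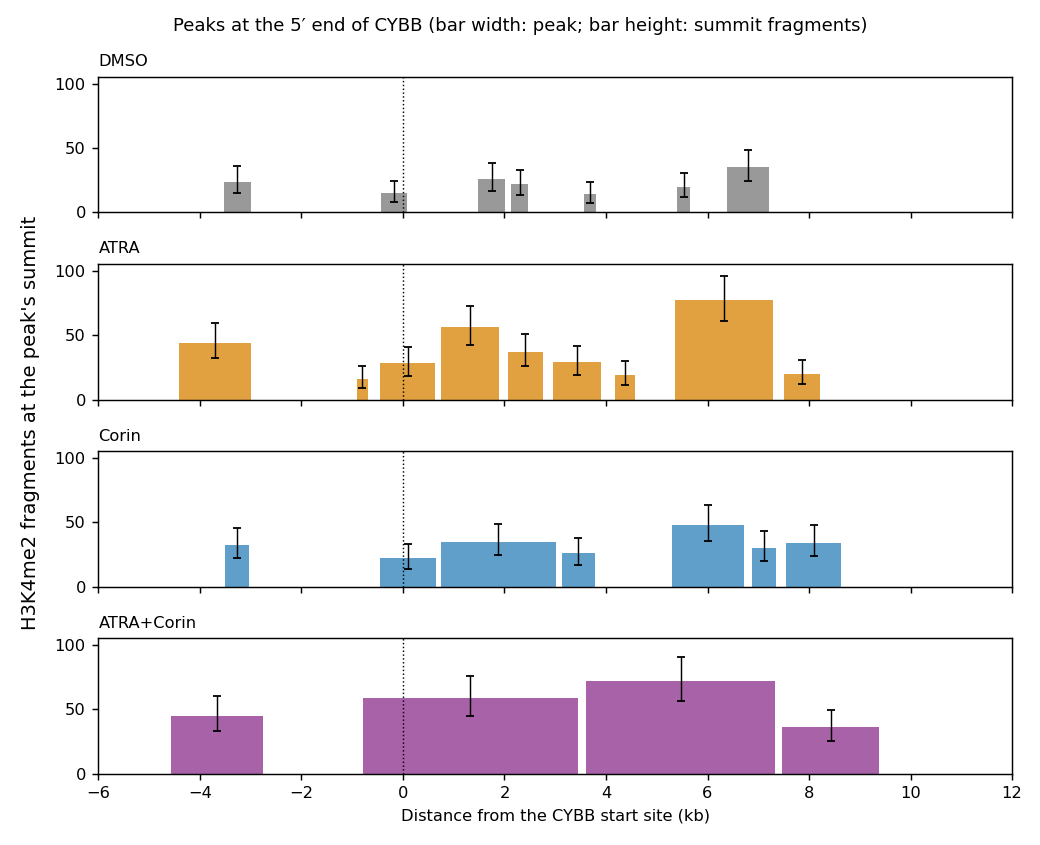
H3K4me2 peaks at the 5′ end of CYBB in each list, with distance from the start site in kb on the x axis and H3K4me2 fragments at the summit on the y axis. Bar width is the peak, bar height its summit fragments, and error bars are exact Poisson 95% intervals (counting error only); the narrow DMSO bars widen with each drug and reach 77 fragments with ATRA and 72 with the combination.

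Upstream of CYBB, 6 regions were marked in all lists. The strongest, at −34.5 to −32.0 kb from the start site, held 100 fragments at its highest DMSO summit, 132 with ATRA, 109 with Corin and 137 with the combination. A group of 3 ran from −27.7 to −23.8 kb and held up to 28 fragments in DMSO and 51, 34 and 54 in the drug lists. Against DMSO, 3 regions were gained with ATRA, 6 with Corin (1 was lost) and 8 with the combination, most of them inside CYBB and the rest upstream of it or past its end. The net gain with the combination was 5 at equal depth. Of the 8, 2 had a −log10 q of at least 5, at 7.5 to 9.4 kb and at 31.9 to 32.8 kb, and both were also marked with each single drug.

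The length under peaks within 50 kb of CYBB was 9.41 kb in DMSO, 17.3 kb with ATRA, 16.4 kb with Corin and 22.5 kb with the combination. Its gain with ATRA of 7.89 kb compares with a median of 0.36 kb over all protein-coding genes, and 39 genes (0.195%) gained more. With Corin the gain was 6.94 kb (median 1.11 kb, 2.84% of genes gained more), and with the combination 13.1 kb (median 1.69 kb, 1.51% gained more). Within 5 kb of the start site, a window chosen after seeing the data, CYBB gained 3.78 kb with ATRA, and 4 genes (0.0200%) gained more. At equal depth the 50 kb gain with ATRA was 7.46 kb, and 57 genes gained more. From ATRA to the combination CYBB gained 5.21 kb, and 10.1% of genes gained more. From Corin to the combination it gained 6.16 kb, and 2.17% of genes gained more. These ranks describe the lists and are not a test.

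CYBA lay in a densely marked stretch. The gene is at chr16:88643275-88651083 on the minus strand, with 6 exons. Its RefSeq promoter (chr16:88651004-88651303, GRCh38.p14) is shown because it differs from that of CYBB in composition: it has 23 CG dinucleotides and no match to any of the motifs named for CYBB.

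CYBA promoter: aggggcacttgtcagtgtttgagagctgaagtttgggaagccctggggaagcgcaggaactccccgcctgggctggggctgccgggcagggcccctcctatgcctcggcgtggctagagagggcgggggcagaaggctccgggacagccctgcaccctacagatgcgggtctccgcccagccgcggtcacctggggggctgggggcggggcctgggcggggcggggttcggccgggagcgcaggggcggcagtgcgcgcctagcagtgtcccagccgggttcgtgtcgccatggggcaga

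The peak over the CYBA start site was 3430 bp wide in DMSO, 3640 with ATRA, 3679 with Corin and 4002 with the combination. Its summit held 233 fragments in DMSO (204 to 265), 267 with ATRA (236 to 301.02), 155 with Corin (132 to 181) and 218 with the combination (190.02 to 249). The Corin value was the lowest, and its interval overlapped none of the others. Length under peaks within 50 kb was 15.6 kb in DMSO, 15.1 kb with ATRA, 16.8 kb with Corin and 19.1 kb with the combination. The CYBA window was the single one of the 5 to lose length with ATRA, with a change of −0.487 kb that became 0.425 kb within 10 kb of the start site. Peaks that were narrower with ATRA included those over the start sites of its neighbours. With the combination the CYBA window gained 3.504 kb, and 28.5% of genes gained more.

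Of the 10 CYBA regions, 7 were marked in all lists, and they include the start sites of the neighbours MVD and SNAI3. The 3 regions gained with the combination lie inside CYBA, 2.6 to 4.0 kb after the start site, with 15 to 29 fragments. None reached a −log10 q of 5, and at equal depth the net gain was 0. One of them was also marked with ATRA, with 17 fragments, and Corin gained no region at CYBA.

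NCF1 cannot be read like the other genes, because near-identical copies lie on the same chromosome. The gene is at chr7:74774011-74789315 on the plus strand, with 11 exons, and the annotated copies are NCF1B and NCF1C. Its RefSeq promoter (chr7:74773761-74774060) occurred with 0 differences over 300 bases at both copies. It is shown because this identity limits what can be read at the gene. Capitals mark 1 interferon type and 1 GAGGAA match in the promoter; the latter lies at −45 to −40 bases on the other strand, close to its place in the CYBB promoter.

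NCF1 promoter: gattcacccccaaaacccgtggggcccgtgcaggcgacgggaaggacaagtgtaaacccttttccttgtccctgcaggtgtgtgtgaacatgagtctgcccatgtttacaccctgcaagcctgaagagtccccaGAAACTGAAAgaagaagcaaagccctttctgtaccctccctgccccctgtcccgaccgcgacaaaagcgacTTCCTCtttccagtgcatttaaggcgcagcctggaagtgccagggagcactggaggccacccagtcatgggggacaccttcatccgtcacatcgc

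In the NCF1 window 20.6% of 75-base windows, the length of a read, occurred once on chromosome 7. At NCF1B the share was 18.9% and at NCF1C 11.3%, while for the other 4 genes 97.97% to 99.9% were unique on their chromosome. No list had a peak over the NCF1 start site, and the nearest lay at −6.7 kb in the DMSO, ATRA and Corin lists. Absence of a peak there therefore does not show absence of the mark, since no 75-base read from within the 300 promoter bases can be told apart from one of the copies.

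The NCF1 window held 0.169 kb under peaks in DMSO, 0.447 kb with ATRA, 0.360 kb with Corin and 1.21 kb with the combination. The DMSO peak held 22 fragments, and 29 to 35 were found at the same region in the drug lists. A second upstream region, at −7.6 to −7.4 kb, was marked with each drug treatment and not in DMSO, with 32 fragments with ATRA, 19 with Corin and 45 with the combination. Of the 75-base windows of these peaks, 35.6%, 61.3% and 37.0% occur once on the chromosome. At about the same distance from its start, NCF1B had a peak in every list. It held 139 fragments in DMSO, 231 with ATRA, 110 with Corin and 219 with the combination. NCF1C had a peak there with ATRA (37) and the combination (32). This region therefore cannot be read as a gain at NCF1 alone. Inside NCF1, a peak over exon 2 was found in the combination list alone, with 52 fragments (38.8 to 68.2). A 300-base stretch at this peak differed at 4 bases (98.7% identity) from each copy, and 66.4% of the 75-base windows of the whole peak occur once on the chromosome. Neither copy had a peak at the matching place. This holds for the exon 2 peak only, and another peak inside NCF1 is not reported here. It therefore does not show that gains inside the gene were specific to NCF1.

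**Figure D3:**
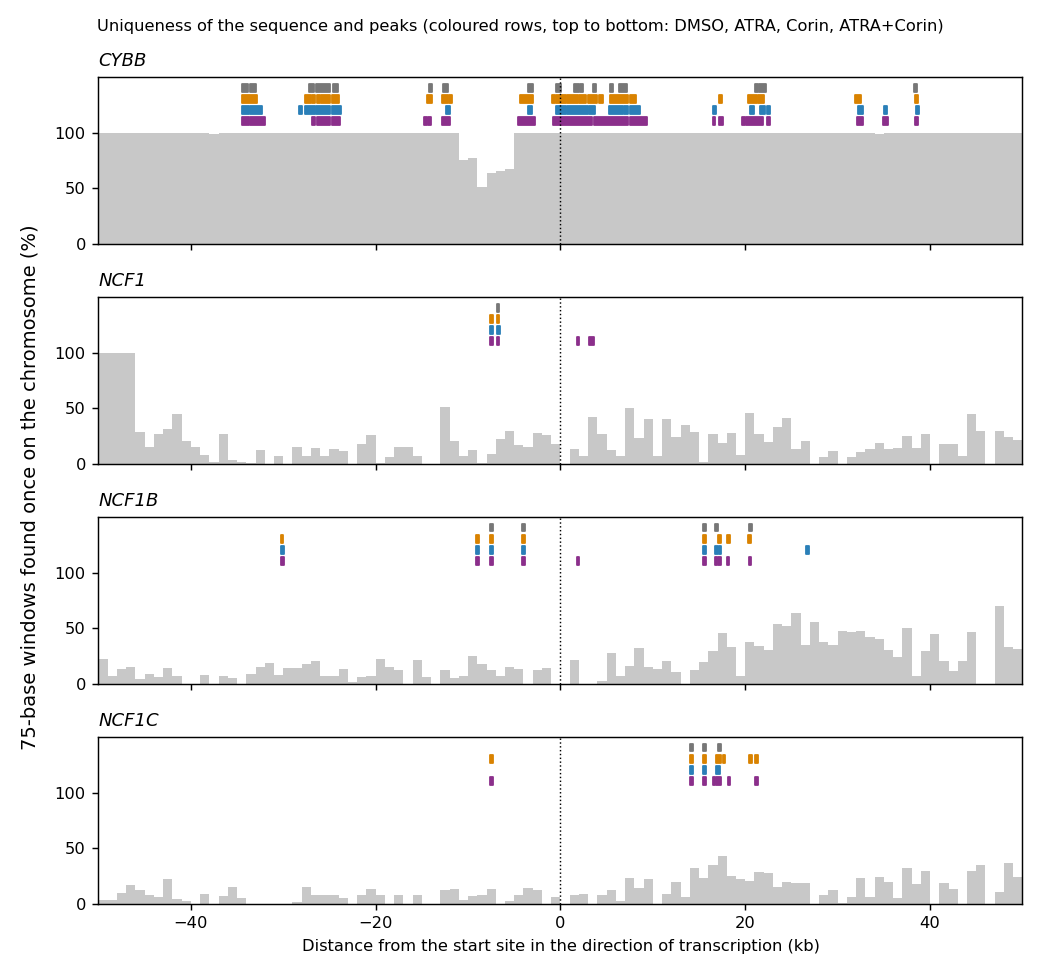
Share of 75-base windows found once on the chromosome (grey bars, per kb, in %) and H3K4me2 peaks (coloured rows) against distance from the start site in kb, for CYBB, NCF1 and the NCF1 copies. Nearly all of the CYBB window is unique, while over the NCF1, NCF1B and NCF1C windows 20.6%, 18.9% and 11.3% is.

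NCF4 gained length with each drug. Near its start site it gained more with ATRA than with Corin, while ATRA and the combination were close. The gene is at chr22:36860988-36878017 on the plus strand, with 10 exons. The peak over its start site was 2597 bp wide in DMSO, 3328 with ATRA, 3401 with Corin and 3348 with the combination. In DMSO a separate peak of 219 bp lay just before it, at −381 to −163 bases, a stretch inside the start peak of each drug list. Its summit held 162 fragments in DMSO (138 to 189), 242 with ATRA (212 to 274), 135 with Corin (113 to 160) and 206 with the combination (179 to 236). The ATRA interval lay above those of DMSO and Corin and overlapped that of the combination. The start peaks of CYBB, CYBA and RAC2 also held more fragments with ATRA than in DMSO. Over all peaks the median was 47 with ATRA and 39 in DMSO.

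Within 50 kb, NCF4 had 6.31 kb under peaks in DMSO, 10.1 kb with ATRA, 9.80 kb with Corin and 11.2 kb with the combination. The gain with ATRA of 3.83 kb was exceeded by 2.79% of genes. Within 5 kb, the window added after seeing the data, the ATRA gain of 2.23 kb was exceeded by 0.310% (0.828 kb with Corin, 1.89 kb with the combination). Within the planned 10 kb the gain was 2.10 kb with ATRA, 0.989 kb with Corin and 2.02 kb with the combination. The Corin gain of 3.49 kb was exceeded by 16.1% of genes and the combination gain of 4.86 kb by 18.6%. A region 2.8 to 3.9 kb after the start site, next to the start peak, was marked with ATRA (24 fragments) and with the combination (22) and not in the other lists. In a cluster at −29.9 to −27.2 kb, DMSO had 1 weak peak. ATRA had 3 regions there, Corin 1 and the combination 4. A pair of regions at 20019 to 21617 bases, past the gene's end, was marked with Corin or the combination and not with DMSO or ATRA, with up to 31 fragments.

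RAC2 gained more length with Corin than with ATRA. The gene is at chr22:37225270-37259594 on the minus strand, with 7 exons. The peak over its start site was 5095 bp wide in DMSO, 5004 with ATRA, 5323 with Corin and 6730 with the combination. Its summit held 185 fragments in DMSO (159 to 214), 237 with ATRA (208 to 269), 162 with Corin (138 to 189) and 233 with the combination (204 to 265). The DMSO and Corin intervals overlapped, as did those of DMSO and ATRA.

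Length under peaks within 50 kb of RAC2 was 17.2 kb in DMSO, 17.5 kb with ATRA, 22.3 kb with Corin and 25.4 kb with the combination. The ATRA difference of 0.252 kb was below the median of all genes, and it became −0.091 kb within 10 kb. The Corin gain of 5.11 kb was exceeded by 7.25% of genes and the combination gain of 8.22 kb by 6.61%. With only peaks of −log10 q of at least 5, these gains were 2.42 and 4.33 kb. ATRA gained 0 regions at RAC2, Corin 4 and the combination 7, a net gain of 7 that was 3 at equal depth, 2 with equal numbers of peaks and 1 with −log10 q of at least 5. The 7 include 4 in a row at −28.0 to −25.8 kb, each with 14 to 21 fragments and marked with the combination alone. A region over the start site of the neighbour CYTH4, at −42.1 to −37.7 kb from that of RAC2, was marked in all lists.

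**Figure D4:**
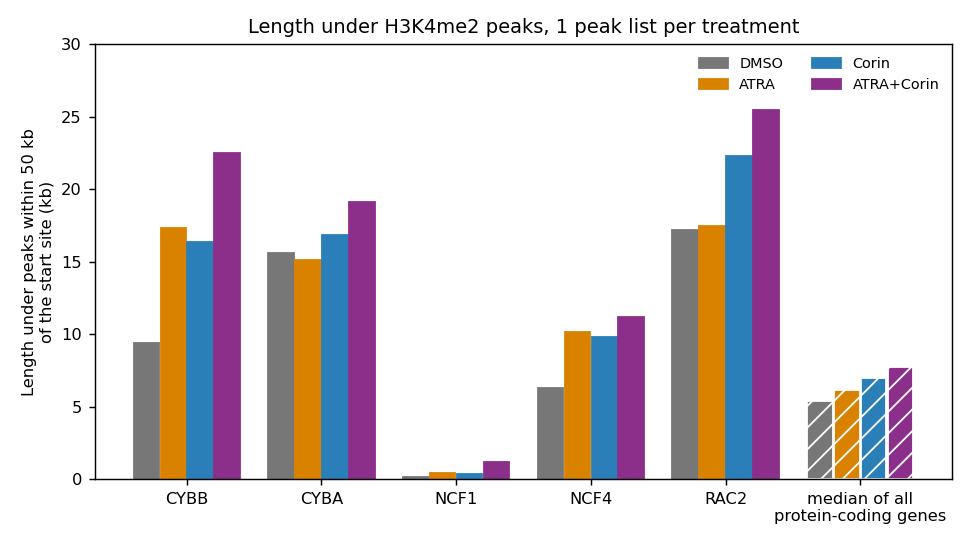
Length under H3K4me2 peaks within 50 kb of the start site (y axis, kb, from 0) for each gene in the 4 peak lists, with the median over 19970 protein-coding genes (hatched). Bars are 1 pooled list each and carry no error; CYBB goes from 9.41 kb in DMSO to 22.5 kb with the combination, and CYBA stays between 15.1 and 19.1 kb.

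Over the 5 genes together the length under peaks was 48.7 kb in DMSO, 60.5 kb with ATRA, 65.6 kb with Corin and 79.5 kb with the combination. With ATRA 4 of 5 genes had more length than in DMSO, beside 67.0% of all genes. With Corin 5 of 5 had more, beside 78.6%, and with the combination 5 of 5, beside 81.8%. The median change of the 5 was 0.278 kb with ATRA, below the 0.36 kb of all genes. It was 3.49 kb with Corin and 4.86 kb with the combination, above 1.11 and 1.69 kb. The gain with ATRA was thus held by CYBB and NCF4, and the gain with Corin by CYBB, RAC2 and NCF4.

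**Figure D5:**
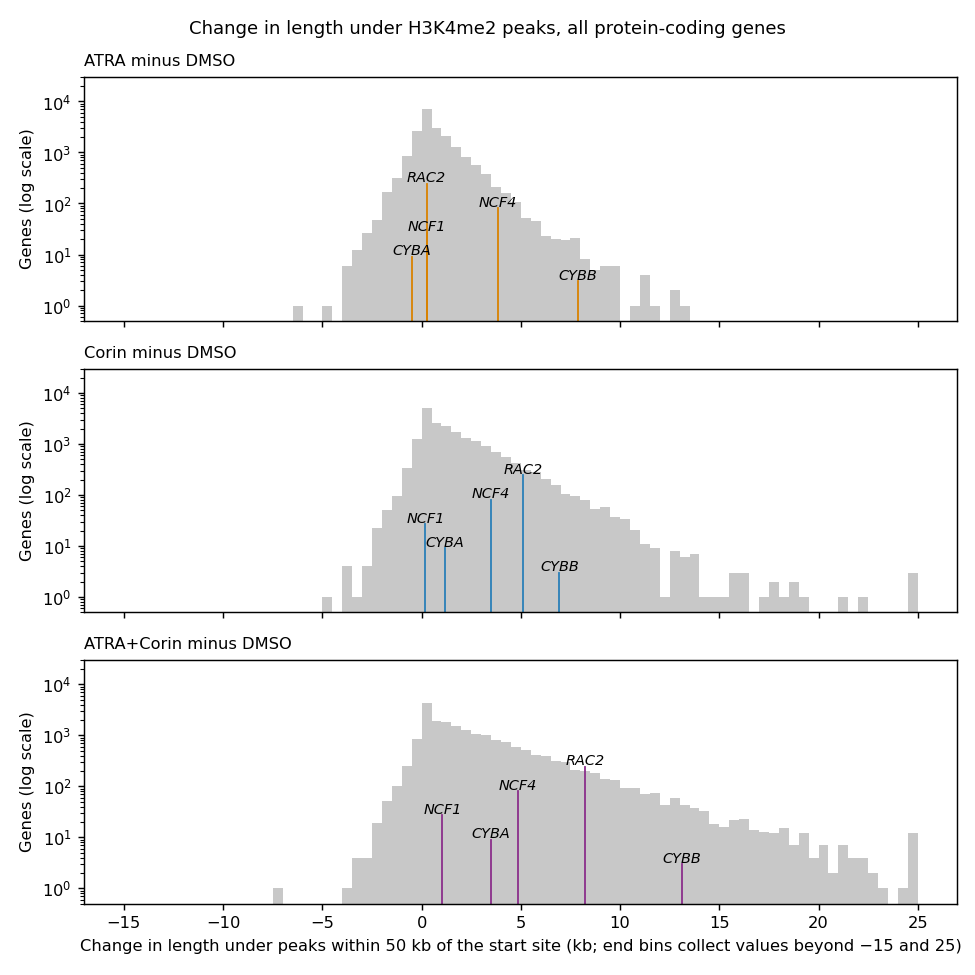
Change in length under peaks within 50 kb of the start site (x axis, kb) over all protein-coding genes (grey, number of genes on a log axis) for each drug list minus DMSO, with the 5 genes as coloured lines whose height has no meaning. With ATRA, CYBB at 7.89 kb and NCF4 at 3.83 kb lie in the right tail and the other 3 lie near 0.

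The combination was also set against each single drug. Against ATRA it gained 18 and lost 1 of 58 regions, or 31.0% gained, where 28.4% of all regions were gained and 4.97% lost. Against Corin it gained 19 and lost 7 of 64, or 29.7%, where 24.0% of all regions were gained and 6.59% lost. Of the 7 lost, 3 lay at NCF4, 3 at RAC2 and 1 at CYBB, with 12 to 31 fragments in the Corin list. RAC2 gained the most length over ATRA, 7.97 kb, and 3.13% of genes gained more. These comparisons share lists with those against DMSO and are not independent of them.

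In the lists as deposited, CYBB, CYBA, NCF4 and RAC2, 4 of 5 genes, had a peak over the start site in every list, beside 47.3% of all start sites in DMSO, 48.1% with ATRA, 38.0% with Corin and 38.0% with the combination. Of the 9438 start sites covered in DMSO, 91.8% were still covered with ATRA, 75.6% with Corin and 74.8% with the combination, while 4 of 4 were for these genes. The DMSO peak over the CYBB start site was weak (−log10 q 2.56). It was not kept with −log10 q of at least 5, nor in the equal-depth setting with its −log10 p cutoff of 5. The CYBB start site was then covered in the 3 drug lists only. DMSO is the shallowest list, so its fragments were not scaled down in that setting.

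Other genes of the pathway were counted from 5 lists, by net gain of regions with the combination against DMSO, which 62.2% of all genes showed. Of 5 other subunits and partners, 5 had a net gain, with a median of 4.41 kb more length (1.69 kb over all genes). RAC1, the ubiquitous relative of RAC2, gained 3 regions and its start site, covered in DMSO, was covered in no drug list. CYBC1, a chaperone of the membrane pair, and HVCN1, a proton channel that balances its charge, gained 2 each.

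All 8 kinases, exchange factors and receptors had a net gain, with a median of 15.4 kb. PREX1, an exchange factor for RAC2, gained 24 regions and lost 2, PRKCB, a kinase of p47phox, gained 14 and lost 3, and FPR2, a formyl peptide receptor, gained 9. Regions over whole gene bodies count here, so long genes hold more, and FPR1 and FPR2 share their window. Of 5 transcription factors 4 had a net gain (median 8.92 kb), with ELF1, an ETS factor, at 13 regions, SPI1, which encodes PU.1, at 7 and IRF1 at 5. Of 4 genes that handle superoxide and peroxide, 3 had a net gain (median 4.12 kb), with catalase (CAT) at 4 regions gained and 1 lost. Start sites under a peak went from 8 in DMSO to 6 with the combination in the kinase list. They went from 4 to 2 among the partners and from 3 to 2 among the transcription factors, and stayed at 2 for superoxide and peroxide handling. Those of PREX1, PRKCB and IRF1 were no longer covered. Over all genes, 74.8% of start sites covered in DMSO were still covered.

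Of 8 other NADPH oxidases and their organisers, 2 had a net gain and the median change was 0.0 kb. These 2 were NOX5 with 3 regions and DUOX2 with 2. NOX1 and NOX4, oxidases of other tissues, had 0.0 kb under peaks within 50 kb in every list. Of the 8, NOXA1, an activator subunit used by NOX1, was the single one with a peak over its start site, in each of the 4 lists.

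The genes outside each window with the most similar 4 lengths under peaks, by Euclidean distance over the 4 lists, were CPEB4 for CYBB (2.41 kb away), MARVELD1 for CYBA (0.807 kb) and GFRA3 for NCF1 (0.213 kb). For NCF4 the nearest was ASRGL1 (0.783 kb) and for RAC2 ST3GAL2 (0.775 kb). CPEB4 had 9.90 kb in DMSO, 16.6 kb with ATRA, 18.6 kb with Corin and 22.5 kb with the combination. CYBB was the farthest of the 5 from its nearest gene.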

How the data were processed

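H3K4me2 chromatin immunoprecipitation was sequenced in U-937 cells. Each of the 4 treatments has 2 H3K4me2 libraries and 1 input, 12 samples in all. Groups were taken from the sample titles. The authors deposited 4 peak lists, 1 per treatment, each made from the H3K4me2 libraries against the input, so values per replicate were not used here, and no test, SD or p is given. Per the submitters' processing notes, Trimmomatic, Bowtie2, Picard, MACS2 and the hg38 build were used. The peak threshold and the handling of reads that match several places are not given in the sources used here. In every list, 0 peaks ended past a GRCh38 chromosome. Each peak carries a deposited score, a fold by the authors (a ratio to the input background), deposited −log10 values for p and for q, and a summit offset. Folds and −log10 q were used within a list only.

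Peaks that overlapped or touched across the 4 lists were merged into regions. A region was gained or lost when it held a peak of only 1 of 2 lists compared. Canonical start sites and exons came from GENCODE release 44, and windows reached 50 kb either side. Whole H3K4me2 fragments at each summit were recovered from the deposited fold (pseudocount 1) and −log10 p by a Poisson tail, met within 0.001 for at least 99.3% of the peaks of each list, and by the same step the relative depth of each list. The procedure was tested on simulated data. Fragment intervals are exact Poisson, 95%, shares of regions have Wilson intervals, and both cover counting error only. The 5 genes and the pathway, marker and motif lists were chosen with earlier results of these data known. Named beside the 5 genes are 2 NCF1 copies, up to 3 genes of each pathway list (of those reported, the ones with the most regions gained with the combination), single genes that a count of 5 or fewer singles out, and for each of the 5 genes the gene with the nearest 4 lengths under peaks. Alternatives used were peaks with −log10 q from 5 upward, equal numbers of peaks, equal depth, merging within 1 kb, strong gained or lost peaks only, and windows of 10 and 100 kb. Equal depth scaled fragments to the DMSO depth and then required a recomputed −log10 p of at least 5. A window of 5 kb was added after seeing the data. Python 3.11.15, numpy 2.4.6, pandas 2.3.3 and scipy 1.17.1 were used. Some genes of the fixed lists and 1 stretch of sequence are not reported here.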

Additional observations from a re-analysis of the deposited data

Results flagged for a closer look

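Within 50 kb of the CYBA start site the length under peaks changed by −0.487 kb from DMSO to ATRA. It was 2.321 kb higher with the combination than with Corin. In this window ATRA thus went with a loss in the absence of Corin and with a gain in its presence. The loss did not lie at CYBA itself, whose start peak was 3430 bp wide in DMSO and 3640 bp with ATRA. Narrower peaks with ATRA lay over the start sites of the neighbours SNAI3 (3724 bp in DMSO, 3251 bp with ATRA) and MVD (2005 and 1822 bp). The difference was not tested, since each value rests on 1 peak list per treatment. Within 10 kb of the start site the first change was 0.425 kb, in the other direction, and the second was 1.437 kb, so both were gains there.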

How the results depend on the processing

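No paired analysis was possible because each treatment has 1 peak list that pools its replicates, and for the same reason no replicate could be left out. The net number of gained regions and the change in length under peaks over the 5 genes stayed above 0 in all 70 alternatives of the 10 main values, but the number of regions depended strongly on the setting. The cause was not tested, except that smaller windows and stricter peaks hold fewer regions by construction. For ATRA against DMSO the net gain of 9 regions became 4 within 10 kb, 2 within 5 kb, 5 at equal depth, 3 with peaks within 1 kb merged and 5 with strong gained or lost peaks only, and the length gain of 11.8 kb became 6.34 kb within 5 kb. For Corin against DMSO the 14 became 7 at −log10 q of at least 5, 4 with equal numbers of peaks, 4 within 10 kb, 1 within 5 kb, 5 at equal depth, 5 with merging and 5 with strong peaks only, and the 16.9 kb became 6.75 kb within 10 kb and 4.30 kb within 5 kb. For the combination against DMSO the 26 became 13 at −log10 q of at least 5, 11 with equal numbers of peaks, 9 within 10 kb, 6 within 5 kb, 8 with merging and 9 with strong peaks only, and the 30.7 kb became 15.6 kb within 10 kb and 10.9 kb within 5 kb. For the combination against ATRA the 17 became 5 at −log10 q of at least 5, with equal numbers of peaks, within 10 kb, with merging and with strong peaks only, and 4 within 5 kb, and the 19.0 kb became 12.1 kb with equal numbers of peaks, 7.56 kb within 10 kb and 4.60 kb within 5 kb. For the combination against Corin the 12 became 6 at −log10 q of at least 5, 7 with equal numbers of peaks, 5 within 10 kb, 5 within 5 kb, 19 within 100 kb, 3 with merging and 3 with strong peaks only, and the 13.8 kb became 8.84 kb within 10 kb and 6.63 kb within 5 kb. Among single genes, the direction with ATRA turned at CYBA (0.425 kb within 10 kb and within 5 kb) and at RAC2 (−0.098 kb with equal numbers of peaks, −0.091 kb within 10 kb and within 5 kb). The number of genes with a larger gain than CYBB with ATRA lay between 1 (within 10 kb) and 125 (within 100 kb) over the settings run for length. With the combination, the net gain of regions at equal depth was 5 at CYBB (8 in the deposited lists), 0 at CYBA (3) and 3 at RAC2 (7).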
